A study of Mus musculus with 3 samples.

Results

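The comparison set mouse embryonic stem cells given 50 ng/ml FGF4 against cells given no FGF4 (0 ng/ml), read by single-cell RNA sequencing. Both libraries came from the E14tg2a line with the genotype Fgf4 -/-, so cells of both groups carried the Fgf4 mutation by label. The cells had been seeded in ES medium with LIF and were then held for 24 h in N2B27 with heparin and the GSK3 inhibitor Chiron, with 50 ng/ml FGF4 in one library and 0 ng/ml in the other. The question was which transcripts differed at the high dose, and whether all cells or only some of them carried the difference. Intact cells were those with at most 10% of their unique molecular identifiers (UMIs, 1 per captured molecule) in mitochondrial genes and with a total within 3-fold of the library median. These were 798 of 975 barcodes at 50 ng/ml and 359 of 373 at 0 ng/ml, together 1157 of the 2222 barcodes of the series, and no barcode was shared between libraries. Each dose was 1 library with no replicate, so dose and library cannot be told apart, no test between doses was made, and each interval covers counting error only. Whether the mutant cells were 1 clone, and which detachment enzyme each library had, is not stated in the labels.

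FGF4 is the main FGF that embryonic stem cells make for themselves. It binds FGF receptors together with heparan sulfate and activates the RAS, RAF, MEK and ERK kinases, which in turn switch on ETS transcription factors and a set of inhibitors that feed back on the pathway. In embryonic stem cells this signal is known for moving cells out of the naive state, in which Nanog and its partners are high, towards a formative state that can enter the germ layers.

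Depth was high in both libraries. Intact cells had a median of 93694 UMIs and 7926 genes at 50 ng/ml, against 109945 UMIs and 8432 genes at 0 ng/ml, and the median mitochondrial share was 5.48% against 5.28%. The filter removed 177 barcodes at 50 ng/ml and 14 at 0 ng/ml. Of these, 136 at 50 ng/ml and 10 at 0 ng/ml had both few UMIs and a high mitochondrial share. All 10 listed embryonic stem cell markers reached 5 CPM (the UMIs of a gene per 1000000 UMIs of the library) in the higher library, with a summed level of 4639 CPM at 50 ng/ml and 4941 CPM at 0 ng/ml. No fibroblast marker of 8 and no primitive endoderm marker of 7 reached that level, with sums of 3.12 and 3.97 CPM at 50 ng/ml against 2.25 and 2.94 CPM at 0 ng/ml. Markers that reached 5 CPM were 3 of 5 for neuroectoderm, 2 of 6 for mesoderm and primitive streak, 2 of 4 for 2-cell-like cells and 1 of 5 for trophectoderm. Their sums were 38.4, 25.8, 39.8 and 17.8 CPM at 50 ng/ml, against 126, 8.72, 20.3 and 11.0 CPM at 0 ng/ml, and their part in the results was not tested. Of the 8 fibroblast markers 2 had 0 UMIs at 50 ng/ml and 4 at 0 ng/ml. Transcript assigned to the mutated Fgf4 gene was 20.6 CPM at 50 ng/ml and 51.9 CPM at 0 ng/ml, a 3' tag that does not check the mutation.

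Promoter windows are shown here for a gene from each side of the comparison. These are Spry2, an inhibitor that was high at 50 ng/ml, and Nanog, a naive factor that was low. Both were picked for display and do not represent the other genes of their side. The windows are RefSeq sequences on GRCm38.p6, from 250 bases before to 50 bases after the start site. Capitals mark CCGGAA, the core of ETS factor sites, in Spry2 (minus strand, 14:105896770-105897069), and TTTGCAT then any base then ACAA, an octamer next to a Sox site, in Nanog (plus strand, 6:122707239-122707538).
Spry2: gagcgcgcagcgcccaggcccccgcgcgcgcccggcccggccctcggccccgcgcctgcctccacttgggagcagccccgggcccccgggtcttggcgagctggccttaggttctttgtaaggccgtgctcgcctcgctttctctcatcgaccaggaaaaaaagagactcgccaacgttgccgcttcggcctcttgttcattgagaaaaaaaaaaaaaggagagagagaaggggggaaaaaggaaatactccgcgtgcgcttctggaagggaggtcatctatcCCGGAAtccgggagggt
Nanog: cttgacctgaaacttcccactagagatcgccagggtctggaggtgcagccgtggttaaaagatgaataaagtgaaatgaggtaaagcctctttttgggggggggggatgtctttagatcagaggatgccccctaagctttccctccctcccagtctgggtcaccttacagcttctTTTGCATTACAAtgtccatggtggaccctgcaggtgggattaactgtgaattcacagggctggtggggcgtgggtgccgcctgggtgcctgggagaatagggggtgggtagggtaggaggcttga

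Both motifs were searched on both strands, and their letters cannot overlap. The letters CCGGAA stood in 15.2% of 27025 promoter windows and in 35.0% of the 4605 matched windows of genes with at least 20 CPM. They stood in 21.8% of the 87 matched windows of genes 2-fold or more higher at 50 ng/ml, and in 16.0% of the 94 matched windows of genes 2-fold or more lower. The octamer and Sox letters stood in 9 windows of 27025 (0.0333%), in none of the 87 and in 1 of the 94, the Nanog window itself. The marked match lies after the start site in Spry2 and before it in Nanog. A match describes letters and does not show a bound site.

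The marker genes differed in their spread over cells. Etv4, an ETS transcription factor downstream of ERK (11:101769742-101785371, minus strand, mm10), was found in 94.5% of 50 ng/ml cells and in 4.82% of 0 ng/ml cells after each cell was thinned to 50000 UMIs. Its UMIs per cell were 1, 4 and 8 at the 10th, 50th and 90th percentiles of 50 ng/ml cells, against 0 at all of these in 0 ng/ml cells. Nearly the whole population was therefore displaced, and the distributions of the libraries overlapped by 10.3%. Summed over intact cells, Etv4 was 89.7 CPM at 50 ng/ml and 1.19 CPM at 0 ng/ml, a ratio of 75.7 (57.3 to 102).

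Spry4, of the Sprouty inhibitors that hold back ERK signalling, had a UMI in 63.4% of 50 ng/ml cells and in 0.850% of 0 ng/ml cells. Its level of 30.7 CPM at 50 ng/ml gave a mean of 1.49 UMIs in a thinned cell, and Poisson counts of that mean would leave 22.4% of cells at 0, where 36.6% were found. The median cell had 1 UMI at 50 ng/ml and 0 UMIs at 0 ng/ml. The 0 ng/ml sum of 0.0711 CPM was 3 UMIs, so the ratio of 431 had an interval of 147 to 2092.

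Otx2, a homeobox factor of the formative state, was sparse and uneven. It had a UMI in 30.4% of 50 ng/ml cells and in 7.37% of 0 ng/ml cells, and its sums were 14.2 CPM at 50 ng/ml and 1.90 CPM at 0 ng/ml, a log2 ratio of 2.91. The 10% of 50 ng/ml cells with most Otx2 held 62.0% of its UMIs, against 34.7% for Poisson counts of the same mean. Poisson counts of that mean would already leave 50.2% of 50 ng/ml cells at 0, so the share with a UMI is not the share of cells that express Otx2. The distributions overlapped by 77.0%.

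Nanog, a core naive factor (6:122707489-122714633, plus strand, mm10), was lower across the population but not absent. Its UMIs per cell were 1, 4 and 11 at the 10th, 50th and 90th percentiles of 50 ng/ml cells, against 6, 13 and 22 in 0 ng/ml cells. A UMI was found in 93.1% of 50 ng/ml cells and 99.7% of 0 ng/ml cells, and 95.4% of 50 ng/ml cells lay below the median of 0 ng/ml cells. The sums were 105 CPM at 50 ng/ml and 280 CPM at 0 ng/ml, or 2.68-fold lower (2.61 to 2.76) at 50 ng/ml. Relative to the mean, cells varied more: variance beyond counting noise, as the squared coefficient of variation, was 0.476 at 50 ng/ml and 0.201 at 0 ng/ml. Low means widen such values, and in UMIs the 10th to 90th percentile range was narrower at 50 ng/ml.

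Free RNA in droplets can place a UMI in a cell that does not make the transcript. The 2-cell-stage gene Zscan4c stood at 16.2 CPM in the 50 ng/ml library and had a UMI in 3.53% of its thinned cells. Spry4 at 30.7 CPM had one in 63.4%. The part of free RNA in these values was not tested.

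**Figure D1:**
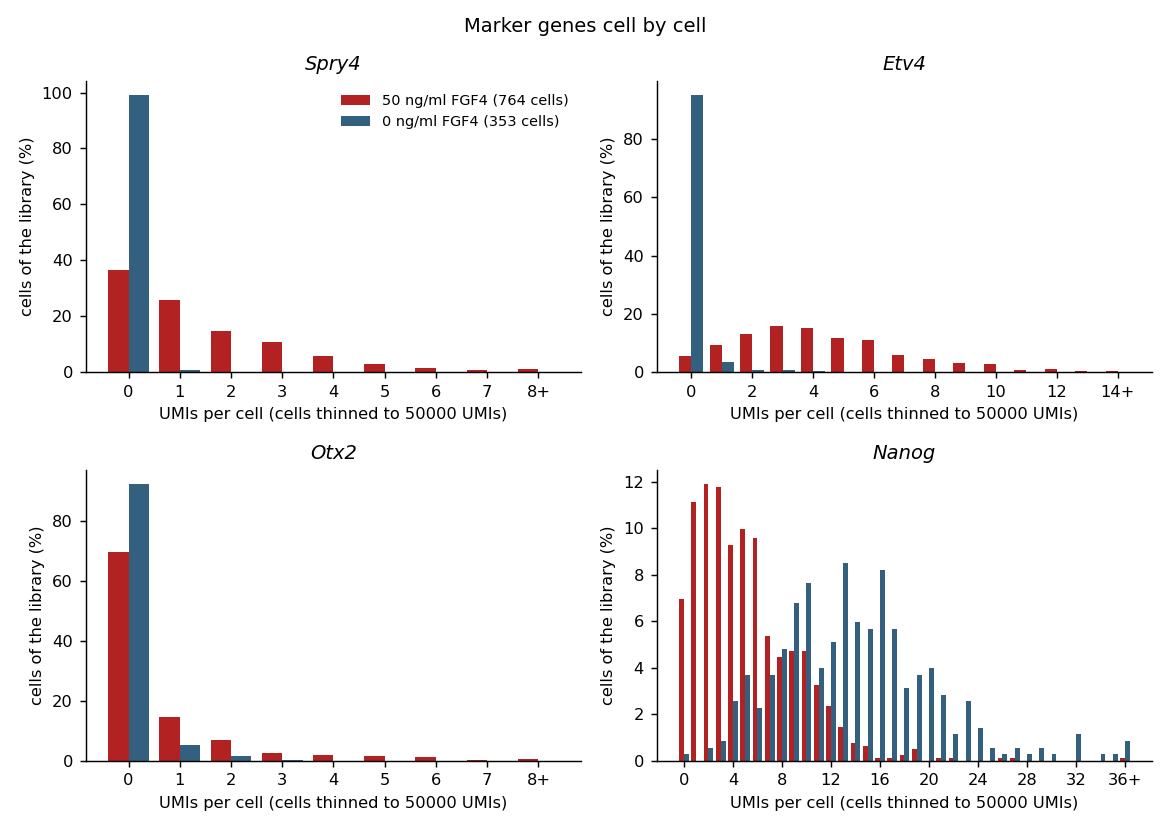
UMIs per cell (x axis, cells thinned to 50000 UMIs) of Spry4, Etv4, Otx2 and Nanog, with the share of each library's cells in percent on the y axis; red bars are 764 cells at 50 ng/ml and blue bars 353 cells at 0 ng/ml. Etv4 is found in 94.5% of red and 4.82% of blue cells, Otx2 in 30.4% and 7.37%, and the Nanog distribution lies lower at 50 ng/ml with a median of 4 against 13 UMIs.

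Over all genes the libraries were close, and a small set stood apart. The 5713 genes that reached 20 CPM on either side included 233 (4.08%) with a 2-fold gap, 115 (2.01%) of them higher and 118 (2.07%) lower at 50 ng/ml. The log2 ratio had a median of 0.03, and 95% of genes fell between -0.91 and 0.87. Among the 2-fold genes with a mean of at least 2 UMIs per thinned cell in the higher library, 73 were higher and 55 lower. Since these genes were chosen for their gap in the same cells, the direction of their medians and of their shares of cells with a UMI was nearly fixed by the choice and is not counted here.

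A stricter rule asked whether the whole population had moved, namely whether the 10th percentile of 50 ng/ml cells lay above the median of 0 ng/ml cells, or the 90th percentile below it. By this rule 17 of the 73 higher genes and 21 of the 55 lower genes were displaced as a whole. The rule was met upwards by 0.545% and downwards by 0.845% of the 3668 genes with enough UMIs, 2-fold apart or not. The overlap of the distributions was a median of 86.6% over those 3668 genes, 51.6% over the higher genes and 53.8% over the lower genes. The higher and lower genes were chosen for a gap in the same cells. That choice favoured less overlap and more displaced genes than over all genes.

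The least overlap was seen for Mkrn1, which encodes the RNA-binding ubiquitin ligase makorin 1 (6:39397804-39420462, minus strand). It had 36, 56 and 82 UMIs at the 10th, 50th and 90th percentiles of 50 ng/ml cells, against 8, 17 and 28 in 0 ng/ml cells. A 50 ng/ml cell held more Mkrn1 than a 0 ng/ml cell in 98.7% of all pairs, and the distributions overlapped by 9.20%. Its summed level was 1162 CPM against 352 CPM, only 3.30-fold apart (3.24 to 3.36), so clean separation did not need a large ratio.

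Utf1, a chromatin-associated pluripotency gene (7:139943789-139945112, plus strand), separated the cells as well, with 98.7% of pairs higher at 50 ng/ml. Its UMIs per cell were 9, 17 and 27 at 50 ng/ml against 0, 2 and 6 at 0 ng/ml, and every thinned 50 ng/ml cell had at least 1. Dnmt3l, a catalytically inactive cofactor of DNMT3A and DNMT3B, had 2, 8 and 15 UMIs against 0, 0 and 2. Dnmt3l was found in 98.6% of 50 ng/ml cells and in 27.2% of 0 ng/ml cells.

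Among other genes displaced upwards as a whole, Khdrbs1, the RNA-binding protein Sam68, had 8, 17 and 27 UMIs at 50 ng/ml against 2, 5 and 9 at 0 ng/ml. Dstn, the actin-severing protein destrin, had 21, 33 and 48 against 8, 15 and 23, and the actin monomer-binding gene Tmsb4x had 19, 35 and 58 against 3, 12 and 26. Pdk1, a kinase that holds back pyruvate dehydrogenase, had a median of 5 UMIs at 50 ng/ml and 0 at 0 ng/ml. The imprinted gene Snrpn, the aldose reductase gene Akr1b3 and the amino acid transporter gene Slc7a7 were higher at 50 ng/ml in 91.8%, 90.7% and 89.3% of pairs.

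Among lower genes the clearest displacement was in Ckb, the brain form of creatine kinase (12:111669361-111672338, minus strand). Cells at 50 ng/ml had 3, 9 and 23 UMIs at the 10th, 50th and 90th percentiles, against 20, 38 and 63 in 0 ng/ml cells. The 0 ng/ml cell was higher in 94.7% of pairs, and the sums of 223 CPM at 50 ng/ml and 789 CPM at 0 ng/ml were 3.53-fold apart (3.47 to 3.60). The lactate dehydrogenase gene Ldhb followed with 3, 8 and 19 UMIs at 50 ng/ml against 14, 27 and 45. The membrane gene Ifitm1 had 2, 8 and 16 against 11, 21 and 39, and the actin-binding gene Lima1 had 1, 4 and 10 against 7, 13 and 21. Osteopontin (Spp1), the scaffold Iqgap1, the histone variant gene H2afy and Tfcp2l1 were displaced downwards too, with medians of 6, 5, 6 and 2 UMIs at 50 ng/ml against 17, 11, 13 and 8 at 0 ng/ml.

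Calcoco2, an autophagy receptor gene (11:96099326-96111964, minus strand), had the largest fold among lower genes and a different shape. It had a UMI in 31.3% of 50 ng/ml cells and in 91.2% of 0 ng/ml cells, with percentiles of 0, 0 and 2 against 1, 7 and 21. At 0 ng/ml itself the cells ranged from 0 to 107 UMIs, and their variance beyond counting noise was 1.36 as a squared coefficient of variation, against 0.201 for Nanog. At 50 ng/ml the top 10% of cells held 66.2% of Calcoco2 UMIs, against 32.3% for Poisson counts. Hes1, a transcriptional repressor, had percentiles of 0, 0 and 2 against 0, 4 and 8, and the myelin-associated gene Mobp had 0, 0 and 1 against 0, 3 and 6. Calcoco2, Hes1 and Mobp were also displaced downwards as a whole.

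**Figure D2:**
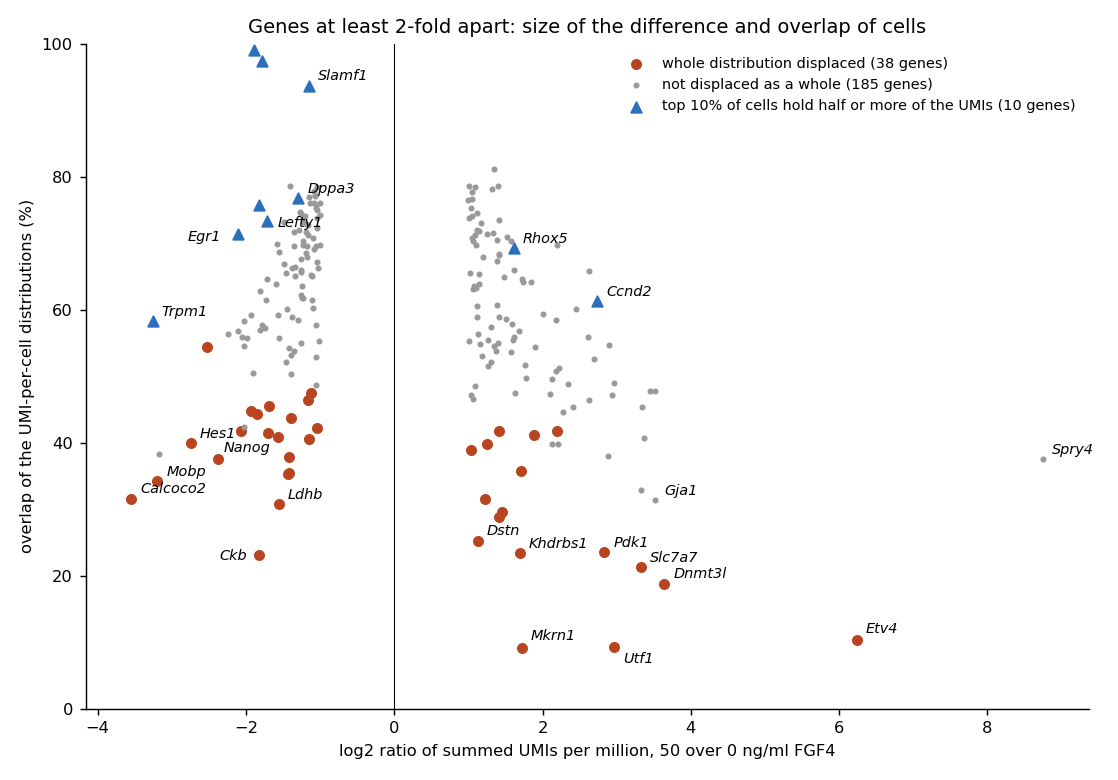
Each point is 1 of the 233 genes at least 2-fold apart; the x axis is the log2 ratio of CPM, 50 over 0 ng/ml, and the y axis the overlap in percent of the UMI-per-cell distributions of the libraries. Orange circles are the 38 genes displaced as a whole, blue triangles the 10 genes of which the top 10% of cells hold at least 50% of the UMIs, grey dots the rest, and Mkrn1 and Utf1 lie lowest at 9.20% and 9.33%.

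A displaced population did not require a 2-fold sum. Pou5f1, which encodes the core pluripotency factor OCT4, was 383 CPM at 50 ng/ml and 203 CPM at 0 ng/ml, or 1.88-fold, yet 90.9% of pairs were higher at 50 ng/ml. Its UMIs per cell were 12, 19 and 26 against 5, 10 and 15. The polyamine enzyme gene Odc1 had 18, 27 and 38 UMIs at 50 ng/ml against 11, 17 and 24, and the lactate dehydrogenase gene Ldha had 41, 70 and 104 against 15, 35 and 69. These were the 3 genes displaced upwards below 2-fold. The 10 displaced downwards below 2-fold included 4 ribosomal protein genes and the matrix gene Fn1, the ferritin gene Ftl1 and the G protein gene Gnai2.

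In 10 of the 233 genes 2-fold apart the top 10% of cells of the higher library held at least 50% of the UMIs. That condition was met by 0.735% of the 5713 genes. The higher ones were Rhox5, an X-linked homeobox gene (X:37804842-37808876, plus strand), and the G1 cyclin gene Ccnd2. Rhox5 had a UMI in 50.1% of 50 ng/ml cells and 21.2% of 0 ng/ml cells, and its top 10% of 50 ng/ml cells held 71.2% of its UMIs, against 18.2% for Poisson counts. Its 50th and 90th percentiles were 1 and 22 UMIs at 50 ng/ml, against 0 and 2 at 0 ng/ml. Ccnd2 had 0, 1 and 8 UMIs against 0, 0 and 1, with 51.2% of UMIs in the top 10% of 50 ng/ml cells.

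For the 8 lower genes of this kind the higher library was 0 ng/ml, so the rule chose them for being uneven there. The Nodal inhibitor genes Lefty1 and Lefty2 had 57.0% and 55.4% of their 0 ng/ml UMIs in the top 10% of 0 ng/ml cells. The immediate early gene Egr1, the channel gene Trpm1 and the germline and naive gene Dppa3 had 54.7%, 54.4% and 50.9%. At 50 ng/ml the top end was lower, with a 90th percentile of 4 UMIs for Lefty1 and 1 for Egr1, against 13 and 6 at 0 ng/ml. Slamf1, a lymphocyte surface receptor gene, hardly differed in the share of cells with a UMI, at 24.7% at 50 ng/ml and 25.2% at 0 ng/ml. The predicted genes Gm8300 and Gm4340 were found in 1.70% and 1.18% of 50 ng/ml cells, against 3.40% and 1.70% of 0 ng/ml cells, so their sums rested on few cells.

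Higher genes were more even at 50 ng/ml and lower genes less even. The median squared coefficient of variation beyond counting noise over higher genes was 0.224 at 50 ng/ml and 0.339 at 0 ng/ml. Over lower genes it was 0.430 at 50 ng/ml and 0.201 at 0 ng/ml, whereas over all genes it was 0.0608 at 50 ng/ml and 0.0635 at 0 ng/ml. The genes were chosen on the same cells, so these medians are a description, and low means widen such values.

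Across the transcriptome the libraries formed largely separate clouds. The first principal component of 2000 variable genes held 5.95% of the variance and placed the 50 ng/ml cell higher in 99.8% of pairs, with 23 of 764 cells inside the range of 0 ng/ml cells. On components 2 to 5 the share of pairs was between 40.6% and 60.5%. Of the 764 cells at 50 ng/ml, 37 (4.84%, 3.43 to 6.61) had any 0 ng/ml cell among their 15 nearest neighbours, and 1 had a majority of them. A random mixture would have put 31.6% of 0 ng/ml cells among the neighbours of a 50 ng/ml cell, and 0.864% were found. Library and dose cannot be told apart in this view.

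**Figure D3:**
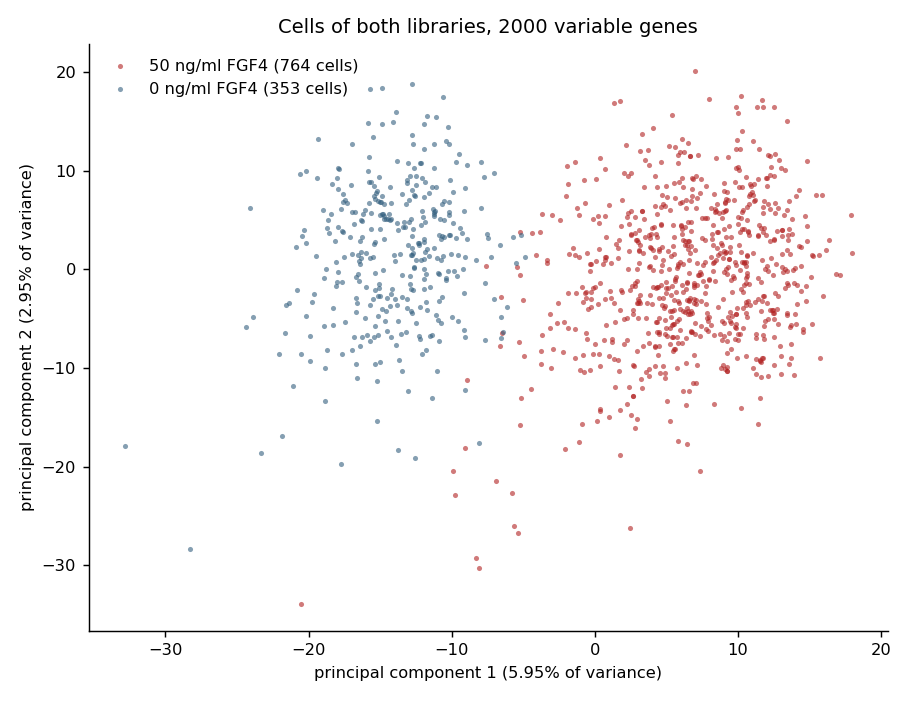
Each point is 1 thinned cell, 764 at 50 ng/ml in red and 353 at 0 ng/ml in blue, on the first (x) and second (y) principal components, which hold 5.95% and 2.95% of the variance. The colours separate along the x axis, and 23 red cells lie within the blue range on that axis. Some of these lie far down the y axis, so they are not read as cells between the clouds.

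The 37 cells at 50 ng/ml with a 0 ng/ml neighbour, which were chosen for lying near 0 ng/ml cells, differed by gene group. Their median naive sum was 290 UMIs, against 237 in the other 50 ng/ml cells and 291 in 0 ng/ml cells. Their median ERK sum was 34 UMIs, against 41 and 24, and their median formative sum 20 UMIs, against 35 and 12. Etv4 had a UMI in 81.1% of them and Spry4 in 40.5%, against 95.2% and 64.5% of the other 727 cells at 50 ng/ml and 4.82% and 0.850% of 0 ng/ml cells. Their mean Utf1 was 13.2 UMIs, against 18.1 in the other 50 ng/ml cells and 2.28 in 0 ng/ml cells. Their mean Nanog was 8.43 UMIs, against 5.02 and 14.1, and their mean Calcoco2 was 2.51 UMIs, against 0.710 and 9.51. They were shallower before thinning, with a median of 79525 UMIs against 96069 in the other 50 ng/ml cells, and the part of depth in their position was not tested.

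The 115 higher genes summed to between 233 and 939 UMIs per thinned cell at 50 ng/ml, median 574, and to between 100 and 396 at 0 ng/ml, median 198. Of the 50 ng/ml cells 37 lay within the 0 ng/ml range. The 118 lower genes summed to a median of 163 UMIs at 50 ng/ml and 455 at 0 ng/ml, with 88 of the 50 ng/ml cells in the 0 ng/ml range. Since these genes were chosen on the same cells, the sums are a description.

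Most measured feedback inhibitors of ERK were higher at 50 ng/ml, whereas nearly all members of the cascade itself were within 2-fold. Of 16 measured genes of the ERK response list (at least 5 CPM in 1 library), 11 were at least 2-fold higher and 1 was lower in the 50 ng/ml library, with a median log2 ratio of 1.59. Over all 9452 genes at that level, 2.66% were higher and 3.51% lower, with a median of -0.0035. The list was chosen with earlier results of these data known, so its counts beside these shares are a description. Among feedback inhibitors 7 of 10 were higher, with the same median log2 ratio of 1.59. The counts and sums of these lists are not read as separate results. Spry2 was 54.4 CPM at 50 ng/ml and 7.37 CPM at 0 ng/ml, a ratio of 7.38 (6.58 to 8.31), and had a UMI in 85.9% against 32.0% of cells. Spred1, a RAF inhibitor of the Sprouty-related family, was 56.4 CPM against 18.5 CPM, and Il17rd, a membrane inhibitor of FGF signalling, was 26.9 CPM against 10.1 CPM. Dusp9 and Dusp7, further ERK phosphatases, were 48.3 and 8.13 CPM at 50 ng/ml against 45.8 and 9.93 CPM, within 2-fold.

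Of 9 measured genes of the ETS and AP-1 list 2 were higher, Etv4 and Etv1, 1 was lower and 6 were within 2-fold, with a median log2 ratio of -0.20. The lower gene, Egr1, is an immediate early gene that belongs to neither family. Etv1 had a UMI in 71.9% of 50 ng/ml cells and 26.3% of 0 ng/ml cells. Elk1, Elk4 and Gabpa, ETS factors of broad use, stayed within 2-fold. The cascade itself, from the receptors to the ribosomal S6 kinases, had 0 higher and 1 lower of 19 measured genes, with a median log2 ratio of -0.05. Map2k1 (MEK1) was 43.0 CPM at 50 ng/ml and 45.1 CPM at 0 ng/ml, and the receptor gene Fgfr1 was 38.6 CPM at 50 ng/ml and 57.8 CPM at 0 ng/ml. The lower gene was the receptor Fgfr2, at 2.89 CPM against 11.7 CPM. The summed cascade was 49 UMIs in the median cell of both libraries.

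The 11 higher ERK genes were chosen on the same cells, so a larger number of them in 50 ng/ml cells is a description. Of these 11, 5, 7 and 10 were found in a 50 ng/ml cell at the 10th, 50th and 90th percentiles, and at least 2 in every such cell. In a 0 ng/ml cell 1, 2 and 4 were found. Of the 50 ng/ml cells 111 (14.5%) had no more of these genes than the 95th percentile of 0 ng/ml cells, which was 5, and 8 had no more than their median of 2. The summed list had a median of 41 UMIs at 50 ng/ml and 24 at 0 ng/ml, and 47.9% (44.3 to 51.5) of 50 ng/ml cells lay above the 95th percentile of 0 ng/ml cells, while 398 of 764 did not. That sum includes Ccnd1, at 201 CPM against 158 CPM, and Etv5, at 189 CPM against 186 CPM, both within 2-fold. The 13 listed feedback inhibitors alone placed 66.5% of cells above the 95th percentile, with medians of 15 UMIs at 50 ng/ml and 7 at 0 ng/ml.

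The naive list held genes that were low at 50 ng/ml and genes that were near level. Of 21 measured genes 6 were at least 2-fold lower, 2 were higher and 13 were within 2-fold, with a median log2 ratio of -0.32. Beside Nanog, the genes at least 2-fold lower included the transcription factor genes Tfcp2l1, at 59.4 CPM against 176 CPM, and Tbx3, at 47.5 CPM against 117 CPM. Prdm14, a repressor of FGF signalling genes, had a UMI in 9.03% of 50 ng/ml cells and 40.5% of 0 ng/ml cells, and the ETS-family gene Spic had one in 2.09% of 50 ng/ml cells and 34.6% of 0 ng/ml cells. Esrrb, Klf4 and Nr5a2 were 1.86-fold, 1.92-fold and 1.83-fold lower, just inside the limit. Zfp42, the naive marker REX1, had 7, 23 and 41 UMIs at 50 ng/ml against 10, 21 and 34, and its distributions overlapped by 75.3%.

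On the other side of the naive list, Gbx2 was 2.88-fold higher and the germline-linked chromatin gene Dppa4 was 2.12-fold higher. Its partner Dppa2 was 140 CPM against 85.2 CPM. The summed naive list was 148, 239 and 336 UMIs at the 5th, 50th and 95th percentiles of 50 ng/ml cells, against 196, 291 and 392 at 0 ng/ml. Only 20.7% (17.9 to 23.7) of 50 ng/ml cells lay below the 5th percentile of 0 ng/ml cells, and that sum includes Dppa5a at 2678 CPM against 3284 CPM.

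Of 10 measured general pluripotency genes 4 were at least 2-fold higher, 6 were within 2-fold and none was lower by that limit, with a median log2 ratio of 0.87. Beside Utf1 these were the Nodal co-receptor gene Tdgf1, the RNA-binding gene Lin28a and L1td1. Lin28a had 4, 9 and 14 UMIs per cell at 50 ng/ml against 1, 3 and 7 at 0 ng/ml. Sox2 was 307 CPM against 383 CPM, and the repressor gene Trim28 was 610 CPM against 614 CPM. The list sum was 149 UMIs in the median 50 ng/ml cell and 97 in the median 0 ng/ml cell, and 69.1% of 50 ng/ml cells exceeded the 95th percentile.

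Of 13 measured formative genes 7 were at least 2-fold higher and none lower, with a median log2 ratio of 1.61. The methyltransferase gene Dnmt3b had 3, 9 and 16 UMIs per cell at 50 ng/ml against 0, 2 and 6, and 59.9% of 50 ng/ml cells exceeded the 95th percentile of 0 ng/ml cells. Tcf15, a helix-loop-helix factor, had a UMI in 91.1% against 55.5% of cells, and Sox11 in 72.9% against 20.1%. Pou3f1 was sparse, with a UMI in 27.5% against 13.3% of cells. The sum was 34 UMIs in the median 50 ng/ml cell and 12 in the median 0 ng/ml cell, and 74.3% (71.1 to 77.4) of 50 ng/ml cells exceeded the 95th percentile of 0 ng/ml cells. The range at 50 ng/ml was wide, from 16 UMIs at the 5th to 74 at the 95th percentile.

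**Figure D4:**
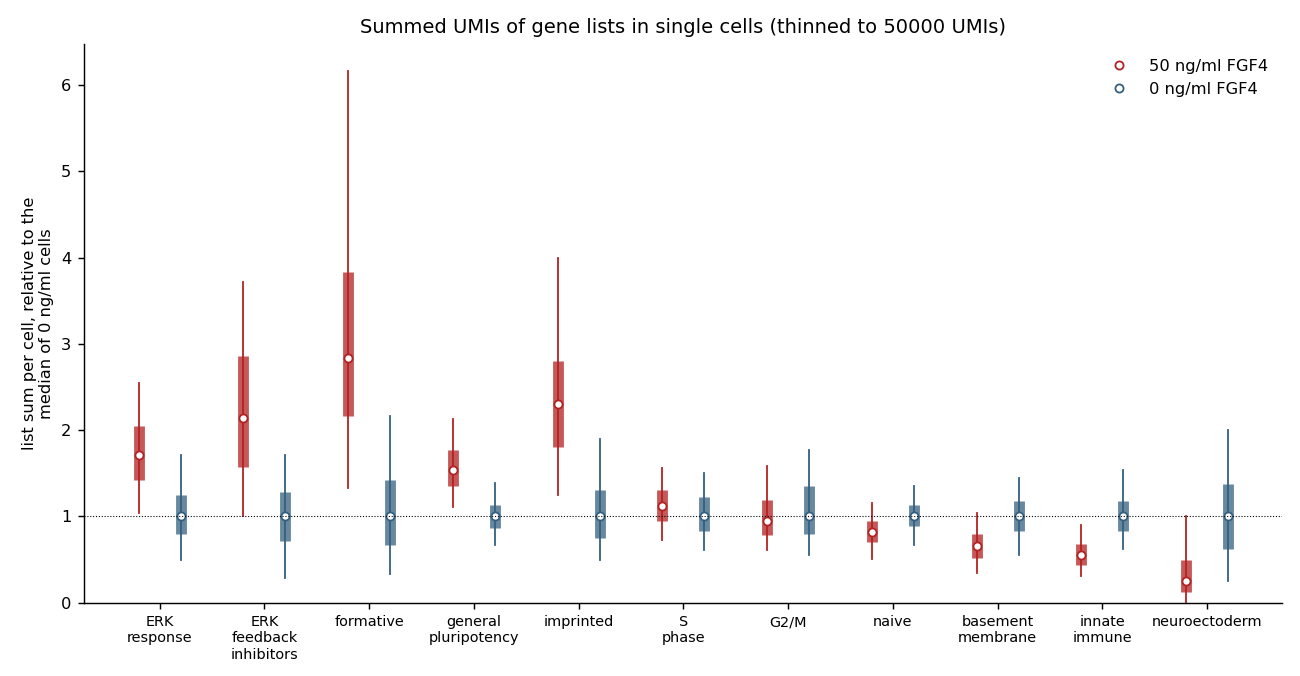
Summed UMIs of each gene list in thinned cells (y axis), divided by the median of 0 ng/ml cells, for 50 ng/ml (red) and 0 ng/ml (blue); circles are medians, thick bars the 25th to 75th and thin lines the 5th to 95th percentiles of cells. The formative and imprinted sums lie highest at 50 ng/ml, with medians of 34 against 12 and 46 against 20 UMIs, and the S phase and G2/M sums overlap.

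Within the 50 ng/ml library the list sums were also read jointly. Of 764 cells 83 (10.9%) were at once above the 95th percentile for ERK genes, below the 5th for naive genes and above the 95th for formative genes, and the product of the 3 shares was 7.37%. Cells that met none of the 3 were 127 (16.6%), against a product of 10.6%, and 228 cells (29.8%) met the ERK and formative conditions alone. The correlation of ERK and formative sums across cells was 0.317 at 50 ng/ml and 0.153 at 0 ng/ml (Pearson, n = 764 and 353 cells of 1 library each). For ERK and naive sums it was -0.17 at 50 ng/ml and 0.0043 at 0 ng/ml. In sparse counts such weak values are no finding.

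The 50 ng/ml cells were also ordered by their ERK sum and cut into 4 groups of 191 cells, whose median sums were 29, 38, 45 and 55 UMIs. Mean Nanog was 5.46, 5.59, 5.19 and 4.49 UMIs from the lowest to the highest group, against 14.1 in 0 ng/ml cells, whose means close each comparison here. On Nanog and Utf1 the lowest group lay nearer to its own library. Its median ERK sum of 29, against 24 in 0 ng/ml cells, was set low by the cut itself. Mean Utf1 was 16.3, 18.0, 17.6 and 19.6 UMIs, against 2.28. Otx2 was 0.461, 0.639, 0.545 and 1.12 UMIs, against 0.0963, and the streak gene T was 0.340, 0.450, 0.497 and 0.911, against 0.130. The noncoding RNA Meg3 was 7.36, 10.8, 10.3 and 13.8 UMIs, against 2.42. The groups were cut on measured values and are a description.

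Of 7 measured primitive streak genes 5 were at least 2-fold higher and none lower, where 2.66% of all genes with at least 5 CPM were higher. Only 3 of the streak genes reached 20 CPM, 1 of them higher, with a median log2 ratio of -0.08. T (brachyury), a mesoderm factor, had a UMI in 28.4% of 50 ng/ml cells and 11.6% of 0 ng/ml cells, and Eomes in 28.1% and 8.78%. Fst, an activin inhibitor, was 12.5 CPM against 1.75 CPM. The top 10% of 50 ng/ml cells held 64.3% of T UMIs, against 40.2% for Poisson counts. Cdx1 was the broadly found member, in 90.3% against 67.1% of cells, and the Wnt target Sp5 and the ligand gene Nodal stayed within 2-fold.

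Of 5 measured neuroectoderm genes 3 were lower, led by the neuronal tubulin gene Tubb3. It had 0, 1 and 3 UMIs per cell at 50 ng/ml against 1, 5 and 11, and the adhesion gene Ncam1 was 7.47 CPM against 30.4 CPM. Pax6 was 6.49 CPM against 5.90 CPM. Of 8 measured genes of the primitive endoderm list 3 were lower, and all are basement membrane genes: Lama1, Nid1 and Col4a1. Its transcription factors Gata4, Gata6, Sox7, Sox17, Foxa2 and Hnf4a did not reach 5 CPM. Of 10 measured basement membrane genes these 3 were lower and none higher, and Lama5 was 33.8 CPM against 23.0 CPM. The summed list had medians of 19 UMIs at 50 ng/ml and 29 at 0 ng/ml.

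Of 13 measured imprinted genes 6 were at least 2-fold higher and none lower, with a median log2 ratio of 0.83. Snrpn had 8, 16 and 25 UMIs per cell at 50 ng/ml against 2, 5 and 10, and every thinned 50 ng/ml cell had at least 1. Meg3, a maternally expressed noncoding RNA, was broader in its spread, with 2, 9 and 22 UMIs against 0, 1 and 7, and 39.9% of 0 ng/ml cells had none. Peg10, a retrotransposon-derived gene, had a UMI in 63.5% against 11.3% of cells. The growth-signalling adaptor gene Grb10 was 74.5 CPM against 42.0 CPM, within 2-fold, and Peg3, Impact and Igf2r were near level. The list sum placed 70.5% of 50 ng/ml cells above the 95th percentile of 0 ng/ml cells. Of 8 measured DNA methylation genes 2 were higher, Dnmt3l and Dnmt3b, and the dioxygenase genes Tet1 and Tet2 were within 2-fold.

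Other signalling lists held members on both sides. Of 9 measured BMP genes 3 were higher, the ligand gene Bmp4 and the targets Id1 and Id3, and 1 was lower, Id4. Bmp4 was 27.3 CPM at 50 ng/ml and 4.43 CPM at 0 ng/ml, a ratio of 6.15 (5.29 to 7.18), and had a UMI in 50.9% against 16.7% of cells. Of 13 measured Nodal genes 1 was higher, Tdgf1, and 2 were lower, Lefty1 and Lefty2, whereas the transducer genes Smad2 and Smad4 were near level. Of 12 measured Wnt genes 2 were higher, Lef1 and Cdx1, and 2 lower, Tcf7l1 and the Wnt inhibitor Sfrp1, and Axin2, a general target, was 39.3 CPM against 38.2 CPM.

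The LIF, Notch and receptor tyrosine kinase lists had median log2 ratios of -0.60, -0.56 and -0.85. Over all genes with at least 5 CPM, 3.51% were lower. Of 9 measured LIF genes 8 were within 2-fold and 1 was lower, Tfcp2l1, which is also in the naive list. The receptor subunit gene Il6st was 17.0 CPM against 29.3 CPM. Of 7 measured Notch genes 2 were lower, Hes1 and the receptor gene Notch1, which was 11.0 CPM against 26.4 CPM. Of 8 measured receptor tyrosine kinases 3 were lower and 1, the ephrin receptor gene Epha2, was higher. Kit, the stem cell factor receptor, had 0, 1 and 3 UMIs per cell at 50 ng/ml against 1, 4 and 9, and was 4.17-fold lower (3.94 to 4.42). Ephb4 was 8.55 CPM against 18.3 CPM.

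Cell-cycle genes were nearly level. None of 20 S phase genes and none of 20 G2/M genes was 2-fold apart, and their median log2 ratios were 0.12 and -0.16. The S phase sum was 154 UMIs in the median 50 ng/ml cell and 138 in the median 0 ng/ml cell, and the G2/M sum was 164 at 50 ng/ml and 173 at 0 ng/ml. Of 13 measured G1 regulators Ccnd2 was higher and the inhibitor gene Cdkn1b was lower, at 10.2 CPM against 24.0 CPM. Of 14 p53 targets 1 was higher, Pmaip1 (NOXA, a cell-death gene), at 15.7 CPM against 1.90 CPM, and Cdkn1a was 76.8 CPM against 119 CPM. None of 9 heat shock genes was 2-fold apart.

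Of 20 glycolysis genes 2 were higher, Pdk1 and the lactate exporter gene Slc16a3, and 2 were lower, Ldhb and the hexokinase gene Hk1. The enzymes between, such as Gapdh at 3578 CPM against 3821 CPM and Pkm at 1210 CPM against 1028 CPM, were within 2-fold. Of 15 measured transporters 3 were higher, Slc7a7, the zinc transporter gene Slc39a14 and Slc16a3, and none was lower. Of 12 measured innate immune genes 4 were lower, Calcoco2, Rnf213, Ifitm1 and Irf1, and 1 was higher, the tetherin gene Bst2. Ifitm2 and Ifitm3 were 455 and 180 CPM against 639 and 288 CPM. The immune sum had medians of 46 UMIs at 50 ng/ml and 84 at 0 ng/ml, and 64.4% of 50 ng/ml cells lay below the 5th percentile of 0 ng/ml cells.

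Of 22 measured junction and adhesion genes 3 were higher, Gja1, Epcam and the focal adhesion gene Zyx, and 3 were lower, among them Gjb5 and Cldn4. Of 4 measured trophectoderm genes 2 were higher and none lower, where 2.66% of all genes with at least 5 CPM were higher. The 9 listed trophectoderm genes summed to 59.1 CPM at 50 ng/ml against 69.1 CPM at 0 ng/ml. The 1 member that reached 20 CPM had a log2 ratio of -0.80, so the list did not lie higher as a whole. Of 3 measured 2-cell-like genes 1 was higher and 1 lower.

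Within single cells the balance of some related genes differed between libraries, in pairs chosen after the values were seen. Both counts of a pair come from 3' tags of the same cell, so the share of the pair is set between libraries and not read as a level of protein. Ldha made up 88.8% of the Ldha and Ldhb UMIs of the median 50 ng/ml cell and 57.6% in the median 0 ng/ml cell. More Ldha than Ldhb UMIs were found in 99.1% of 50 ng/ml cells and in 65.2% of 0 ng/ml cells. Among the nuclear partners of beta-catenin, Lef1 made up a median of 63.6% of Lef1 and Tcf7l1 UMIs at 50 ng/ml and 0% at 0 ng/ml, and it was the larger in 58.0% of 50 ng/ml cells and 2.86% of 0 ng/ml cells.

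The connexin gene Gja1 was 77.1 CPM at 50 ng/ml and 6.73 CPM at 0 ng/ml. Of the adhesion genes Epcam and Cdh1, Epcam was the larger in 60.1% of 50 ng/ml cells and 13.5% of 0 ng/ml cells. Etv4 made up a median of 30% of Etv4 and Etv5 UMIs at 50 ng/ml and 0% at 0 ng/ml, on an Etv5 level of 189 CPM at 50 ng/ml and 186 CPM at 0 ng/ml. Of the BMP targets Id3 and Id4, Id3 was the larger in 97.0% of 50 ng/ml cells and 44.5% of 0 ng/ml cells with either.

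**Figure D5:**
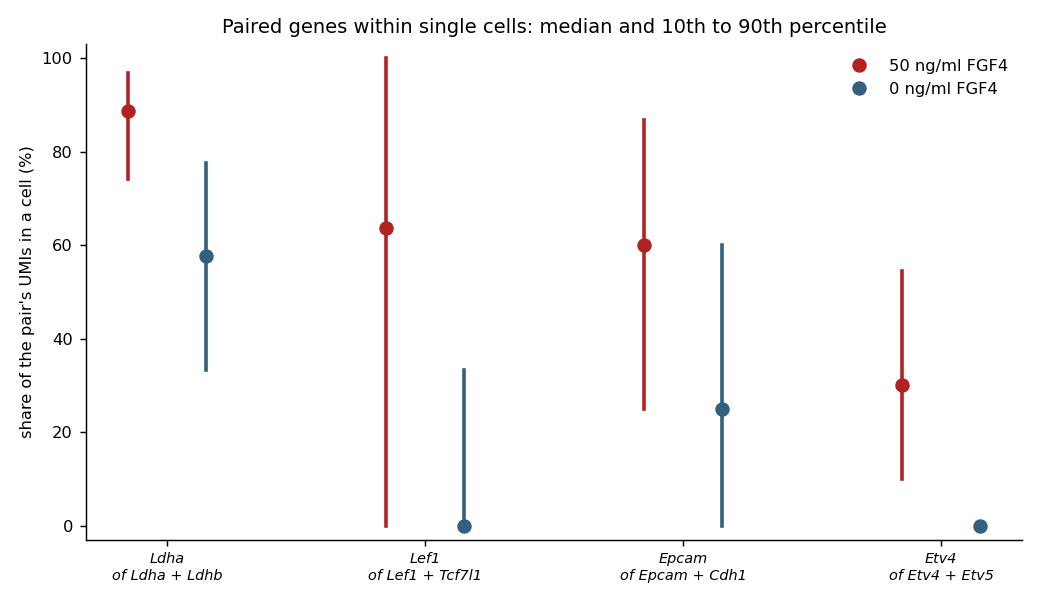
Share in percent of the first gene in the summed UMIs of a gene pair within 1 cell (y axis), for 4 pairs (x axis), at 50 ng/ml (red) and 0 ng/ml (blue); points are medians and lines the 10th to 90th percentiles of cells with a UMI of either gene. Ldha lies at 88.8% of its pair against 57.6%, and Etv4 at 30% against 0%.

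Some of the leading genes stood outside the groups above. The myelin regulatory factor gene Myrf was 7.41-fold higher (6.20 to 8.93) and had a UMI in 59.7% against 14.4% of cells. Cntfr, a receptor subunit for ciliary neurotrophic factor, was 25.1 CPM against 3.86 CPM, and Noct, the phosphatase nocturnin, was 43.0 CPM against 6.99 CPM. Fgfbp1, which carries FGFs in the matrix, was 5.48-fold higher (4.73 to 6.38). Adam23, an adhesion protein of the ADAM family, had 1, 3 and 7 UMIs per cell at 50 ng/ml against 0, 1 and 2. The RNA sensor gene Ddx58 was 60.6 CPM against 14.1 CPM. On the lower side, Elf3, an epithelial ETS factor, was 4.09-fold lower (3.74 to 4.48), the lysophosphatidic acid receptor gene Lpar1 3.96-fold lower (3.61 to 4.36) and the glutathione synthetase gene Gss 3.61-fold lower (3.41 to 3.82). Cpt1a, which admits fatty acids to mitochondria, was 10.9 CPM against 38.6 CPM, and the cysteine dioxygenase gene Cdo1 was 6.16 CPM against 21.6 CPM.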

How the data were processed

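Single-cell 3' RNA libraries were counted by the authors, and the deposited values are raw UMI counts per gene and barcode, made with Cell Ranger 4.0.0 per the file headers on mm10 per the submitters' processing notes. How the authors chose barcodes is not stated in the labels. Members, gene lists and rules were chosen with earlier results of these data known. Barcodes with over 10% mitochondrial UMIs, or with under 1/3 or over 3 times the library median of UMIs, were left out, which left 78555798 UMIs at 50 ng/ml and 42179626 at 0 ng/ml. Counts were summed per library and scaled to CPM, UMIs per 1000000. Ratios have 95% conditional binomial intervals, and shares of cells exact Clopper-Pearson intervals, which cover counting error only. For cell-level values each cell was thinned to 50000 UMIs (seed 1), which left out 34 cells at 50 ng/ml and 6 at 0 ng/ml. Doublets were kept in the main values, and Scrublet called 26 barcodes at 50 ng/ml and 12 at 0 ng/ml, which one alternative left out. Neighbours were the 15 nearest cells in 20 principal components. Named genes were the 4 markers, the 25 largest ratios in each direction, the 10 largest shares of cell pairs in each direction, the 8 genes most carried by few cells, and list members. Genes outside these, such as those displaced below 2-fold, were chosen after their values were seen. Alternatives changed the scaling (including TMM), minimum level, fold limit, cell filter, thinning, percentiles and list sums. Scripts used Python 3.11.15, numpy 2.4.6, scipy 1.17.1, pandas 2.3.3, scanpy 1.11.5, R 4.3.3 and edgeR 4.0.16, and were tested on simulated data. edgeR served only for TMM scaling, since 1 library a dose allows no test. Results for some genes are not reported here.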

Additional observations from a re-analysis of the deposited data

How the results depend on the processing

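No paired analysis was possible because each dose was 1 library and no test was made. Of the alternative values for the main counts and shares 44 stayed close and 30 moved. Genes at least 2-fold higher and lower at 50 ng/ml numbered 189 and 198 with a minimum of 10 CPM, 63 and 45 with 50, and 1428 and 3650 with none. They numbered 265 and 348 at 1.5-fold and 51 and 34 at 3-fold. Without a cell filter 111 of the 115 higher and 116 of the 118 lower genes were shared, and without Scrublet calls 113 and 115. Genes displaced as a whole numbered 11 higher and 12 lower with cells thinned to 30000 UMIs, and 50 and 46 with the 25th and 75th percentiles. Genes with concentrated UMIs numbered 3 when the top 5% of cells had to hold 50% of UMIs.

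The share of 50 ng/ml cells above the 95th percentile for the ERK sum was 42.4% with 30000 UMIs, 56.5% with 60000, 53.7% with a second seed, 68.2% with z-scores, 53.8% without Ccnd1 and 19.6% against the 99th percentile. For the formative sum it was 70.4% with 30000 UMIs, 62.2% with z-scores, 57.6% without Dnmt3b and 16.1% against the 99th percentile. The share below the 5th percentile for the naive sum was 26.4% with 60000 UMIs, 25.1% with a second seed and 1.31% against the 1st percentile. Cells at 50 ng/ml with a 0 ng/ml neighbour were 11.3% with 50 neighbours and 9.16% without the 2-fold genes.

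The median log2 ratio of the BMP list, slightly below 0, became 0.023 with TMM scaling, 0.018 with median of ratios and 0.015 with at most 5% mitochondrial UMIs. That of the Wnt list became 0.033 with the last filter, and that of the 3 measured 2-cell-like genes -1.24 with UMIs between 0.5 and 2 times the median and 6.41 with at most 5% mitochondrial UMIs, against 0.44 in the report's setting. The cause was not tested. The order of the ERK and formative shares depends on the setting.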
